A study of Mus musculus with 10 samples.

Results

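The calcitonin and adrenomedullin family is described here by 8 genes: the ligand genes Calca, Calcb and Adm, the receptor genes Calcr and Calcrl, and the accessory protein genes Ramp1, Ramp2 and Ramp3. They were taken by symbol from the 55487 genes of 2 count tables, and all 8 were found. The family was chosen by its result in these data: Calca was selected on its difference between genotypes, so its genotype values are given as a description with no test. The other 7 genes came with it by family membership, and they were tested within fits of all genes.

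The libraries are bulk RNA sequencing of mammary gland cells from 10-wk-old female BALB/c mice in diestrus, the progesterone-rich stage of the estrous cycle. WT mice were Csf1r-Cre negative and Cebpb fl/fl, and CebpbΔM mice were Csf1r-Cre positive and Cebpb fl/fl, so both genotypes carry the floxed allele of Cebpb, the gene of the transcription factor C/EBPβ. Cre under the Csf1r promoter acts in CSF1R-expressing myeloid cells, and mammary epithelial cells (MECs) are not its target. MECs were isolated by removing cells with markers of other lineages, and macrophages by positive selection for ADGRE1, the classical macrophage surface antigen. There were 2 WT and 2 CebpbΔM MEC libraries (numbered 1 and 3) and 2 WT (4 and 5) and 4 CebpbΔM (4 to 7) macrophage libraries. How many animals went into each library is not given in the sources used here, so the P-values measure only the spread between these libraries, which may be technical.

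The ligands of this family are short peptides cut from longer precursors. Calca gives calcitonin or the α form of calcitonin gene-related peptide (CGRP), depending on which exons are joined, Calcb gives the β form of CGRP, and Adm gives adrenomedullin. Calcrl encodes a receptor that binds CGRP when it is paired with RAMP1 and adrenomedullin when it is paired with RAMP2 or RAMP3, whereas Calcr encodes the calcitonin receptor, which becomes an amylin receptor with a RAMP. These receptors signal mainly through Gs and cyclic AMP. Adrenomedullin acting on CALCRL and RAMP2 in endothelium is known for its part in the growth of blood and lymphatic vessels, and Calca in the uterus is known as a gene that rises with progesterone.

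Calca lies on the minus strand of chromosome 7 at chr7:114631478-114636357 (GRCm38). Its promoter is shown because it is the start region of the gene on which the family was selected, in a study of a deleted transcription factor. The RefSeq window of 250 bases before to 50 bases after the start (GRCm38.p6, chr7:114636308-114636607, minus strand) is given 5′ to 3′, and the capitals mark its single TGACG, the core of the cyclic AMP response element (CRE), which begins 65 bases before the start.

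Calca promoter: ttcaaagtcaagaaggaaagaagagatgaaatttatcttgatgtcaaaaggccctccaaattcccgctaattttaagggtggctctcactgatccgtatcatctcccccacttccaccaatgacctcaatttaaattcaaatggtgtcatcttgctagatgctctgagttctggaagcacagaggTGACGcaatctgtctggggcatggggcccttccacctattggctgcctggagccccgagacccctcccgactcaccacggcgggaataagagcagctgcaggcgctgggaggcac

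TGACG on either strand stands in 20.8% of the 32851 RefSeq promoter windows of this length, and also in windows of Calcr and Ramp1. The full element TGACGTCA, held by 1.79% of windows, and the C/EBP palindrome TTGCGCAA, held by 0.183%, were not found in any of the 7 windows matched to the family (1 each for Calca, Adm, Calcrl, Ramp1 and Ramp3, and 2 for Calcr). The core progesterone receptor motif AGAACA, held by 19.0% of windows, was found among them for Calcrl, and the hypoxia element core ACGTG, held by 19.6%, for none. The full CRE and its core overlap in their letters, and a match or its absence describes these windows only. Only the exact letters given here were searched. Other forms of the C/EBP motif were not looked for, so these windows may hold them, also around the marked TGACG.

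A second sequence shows where the messages of Calca and Calcb are alike. The transcripts Calca-201 and Calcb-201 (GENCODE M21, GRCm38) share an identical stretch of 60 bases, which is their longest. The lower-case base is the last of exon 3 of Calca-201, and the capitals are the start of exon 4 (chr7:114632541-114632599, minus strand), which the transcript Calca-202 does not hold.

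Calca and Calcb shared stretch: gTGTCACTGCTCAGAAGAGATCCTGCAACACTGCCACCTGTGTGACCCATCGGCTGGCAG

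The stretch is shorter than the reads of 150 bp, so a full-length read cannot lie wholly inside it. Calca-202 ends instead in another exon 4, chr7:114633293-114633785, whereas Calca-201 runs on to exons 4 and 5 at chr7:114632416-114632599 and chr7:114631478-114631905. Counts per gene add all 7 annotated Calca transcripts together, so calcitonin and CGRP messages cannot be told apart here.

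MEC libraries held 25310926 to 27008166 counts in total and macrophage libraries 16935000 to 20174722. Levels are given as CPM, the counts scaled to the library's total, and the floor of a library, 3 counts, was 0.111 to 0.177 CPM. Cebpb itself was low in every library. It had 69 and 42 counts in CebpbΔM MECs and 25 and 28 in WT MECs, and 16, 13, 5 and 4 counts in CebpbΔM macrophages against 13 and 15 in WT macrophages. The macrophage groups overlapped, so the genotype names used below are those of the labels. The macrophage markers Adgre1, the gene of the selected antigen, and Csf1r were at 190.0 to 354 and 798 to 1710 CPM in macrophage libraries and at 0 to 0.489 and 8.31 to 19.9 CPM in MEC libraries. The macrophage libraries also held epithelial and vascular transcripts. The summed level of 11 luminal markers was 6113 to 12196 CPM in them and 29298 to 37134 CPM in MECs, and that of 9 basal markers was 826 to 3652 CPM against 6415 to 7566 CPM. In contrast, 12 blood endothelial markers summed to 1824 to 3410 CPM in macrophage libraries and to 157 to 206 CPM in MEC libraries.

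**Figure D1:**
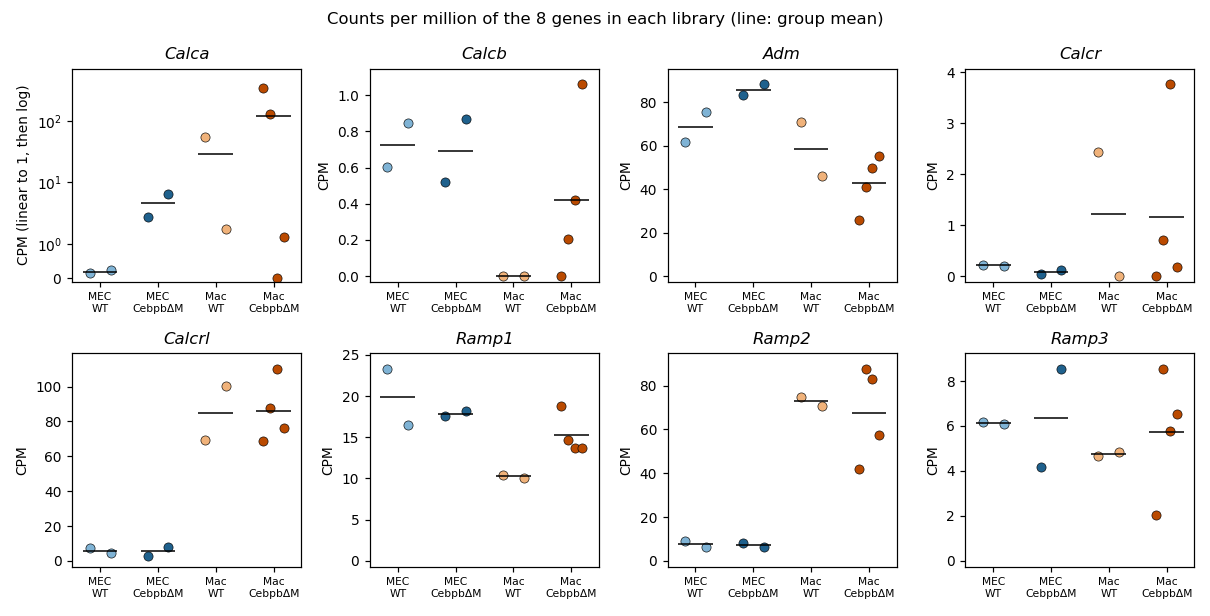
Level of each of the 8 genes in each library, in CPM, by group; points are libraries and lines are group means, and the Calca axis is linear to 1 CPM and logarithmic above. Calca in macrophage libraries spans 0 to 341 CPM in CebpbΔM and 1.78 to 55.3 CPM in WT. Calcrl and Ramp2 are higher in every macrophage library than in every MEC library, as are 22.6% of all genes tested.

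Calca was near the floor in WT MECs and higher in both CebpbΔM MEC libraries. It had 4 and 6 counts in WT MECs 1 and 3, which are 0.150 and 0.231 CPM, and 75 and 164 counts in CebpbΔM MECs 1 and 3, which are 2.78 and 6.48 CPM. Both CebpbΔM libraries were above both WT libraries. The group means were 4.63 ± 2.62 CPM (SD, n = 2) in CebpbΔM and 0.191 ± 0.0570 CPM (SD, n = 2) in WT. The fitted log2 fold change was 4.53 (SE 0.65), a 23.2-fold difference on which the family was selected. In the whole table of MEC genes tested, 17.5% had both CebpbΔM libraries above both WT libraries, and nothing is read from Calca's place among them.

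In macrophage libraries Calca had no common level within either genotype. Among the libraries labelled CebpbΔM it had 6218 counts in number 4, 2576 in number 5, 0 in number 6 and 22 in number 7. In the libraries labelled WT it had 1020 counts in number 4 and 36 in number 5. Both WT values lay within the range of the CebpbΔM values, and number 4 of WT was 31.0 times number 5 in CPM.

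CebpbΔM macrophage libraries 4 and 5 held 86.9% of the 10121 Calca counts of the whole series. The 0 counts of number 6 allow up to 0.157 CPM, whereas number 4 had 341 CPM. The group means were 118 ± 160 CPM (SD, n = 4) in CebpbΔM and 28.6 ± 37.9 CPM (SD, n = 2) in WT, and each SD was larger than its own mean.

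The fitted log2 fold change of Calca in macrophages was 2.06 (SE 1.83) and depended on single libraries. It was 0.69 without CebpbΔM 4, 1.10 without WT 5 and 5.99 without WT 4. As in MECs, it is a description.

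The summed level of basal epithelial markers moved with Calca among the macrophage libraries, but single markers of the list differed. Krt14, a basal keratin, was at 746, 380, 299 and 40.8 CPM in CebpbΔM macrophage libraries 4 to 7 and at 198 and 58.9 CPM in WT 4 and 5. The summed level of the 9 basal markers was 3652, 2297, 2114 and 826 CPM in CebpbΔM and 1498 and 992 CPM in WT, and no marker of the list was at 0. Over the 6 macrophage libraries Pearson's r between this sum and Calca was 0.90 and Spearman's rho was 0.66, and r was 0.55 without the 2 libraries farthest from the median of the sum. Vascular lists did not share 1 direction with Calca. Its r was -0.63 with the blood endothelial sum (rho -0.49) and -0.67 with the pericyte sum (rho -0.49), and without 2 libraries 0.66 and 0.06. For the lymphatic sum r was 0.59 (rho 0.77), and 0.91 without 2 libraries. Within that list Reln was at 49.5, 21.4, 6.55 and 4.55 CPM in CebpbΔM 4 to 7, whereas Flt4 was lowest in CebpbΔM 4, at 6.08 CPM, and Prox1 was highest in WT 4, at 32.9 CPM. The part of these cells in the Calca level was not tested. CebpbΔM 6, with 0 counts of Calca, had a basal sum close to that of CebpbΔM 5, with 2576 counts, and every MEC library had a higher basal sum and less Calca than CebpbΔM macrophage libraries 4 and 5. Acta2 was the largest part of the basal sum in CebpbΔM 6 and 5, at 1087 and 1050 CPM. Myh11 and Mylk were higher in CebpbΔM 6 than in any other macrophage library, at 299 and 161 CPM. The other markers of the list were lower in CebpbΔM 6 than in CebpbΔM 5, among them Krt5 (31.5 against 84.6 CPM), Trp63 (10.9 against 32.3 CPM) and Oxtr (41.7 against 103 CPM).

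**Figure D2:**
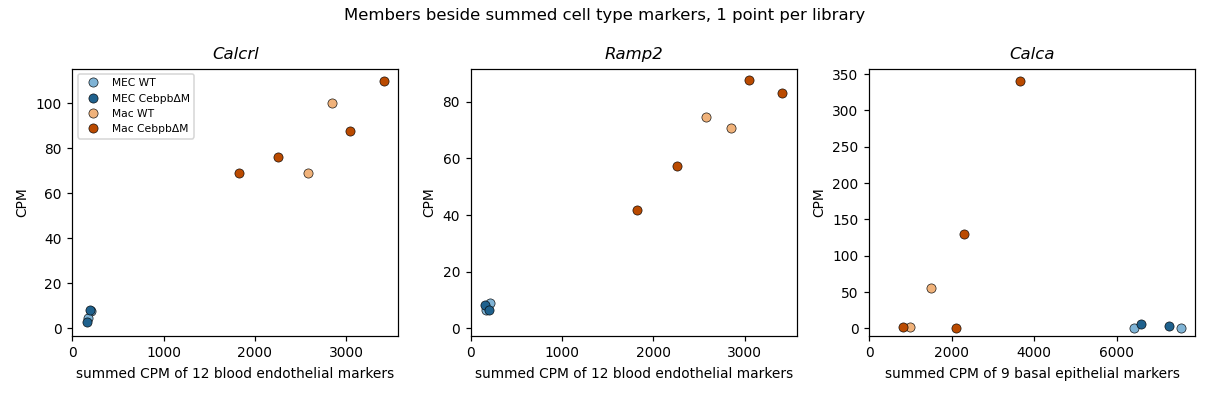
Level of Calcrl, Ramp2 and Calca in CPM against the summed CPM of marker genes, 1 point per library, coloured by group. Calcrl and Ramp2 are high in the macrophage libraries, where 12 blood endothelial markers sum to 1824 to 3410 CPM; the 3 macrophage libraries with the most Calca have sums of 9 basal markers from 1498 to 3652 CPM, CebpbΔM 6 with 0 Calca counts has 2114 CPM, and the MEC libraries have 6415 to 7566 CPM with little Calca.

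Over all 10 libraries the 5 genes whose log2 CPM was most like that of Calca were Smpdl3b (r = 0.93), Dmxl2 (0.92), Bri3 (0.91), Cd1d2 (0.91) and Svs2 (0.90). Within the 6 macrophage libraries they were Gtf2i, Cd1d2, Ercc1, Gm4204 and Rcn1 (r = 0.99 each), and within the 4 MEC libraries Baz1b, Maff, Rusc1, Zbtb7c and Rpl29 (r between 0.998 and 0.999). With so few libraries 651 of 18205 genes had r above 0.9 in MECs and 296 of 18322 in macrophages. Over all 10 libraries it was 7 of 18322. The libraries share cell type and genotype, so these values are descriptions. Over all 10 libraries r with Calca was between -0.52 (Adm) and 0.29 (Calcrl and Ramp2) for the 6 other members that passed the filter. It was between -0.80 (Calcr) and 0.83 (Adm) within the 4 MEC libraries and between -0.81 (Calcrl) and 0.19 (Ramp1) within the 6 macrophage libraries.

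The nearest counted genes on either side of Calca had levels of their own. Cyp2r1, 68506 bp to the side of lower coordinates, had 0 to 20 counts per library, with 20 in CebpbΔM macrophage library 4 and 15 in CebpbΔM 6, where Calca was at 0. Gm15500, 68860 bp to the other side, had 424 to 957 counts in every library.

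Calcb, the other CGRP gene, lies on the plus strand at chr7:114718643-114723365 and was barely counted. It had 14 and 22 counts in CebpbΔM MECs, 16 and 22 in WT MECs, 0, 4, 8 and 18 in CebpbΔM macrophages 4 to 7 and 0 in both WT macrophage libraries. The MEC genotypes overlapped. CebpbΔM macrophage library 4, with the most Calca counts, had 0 Calcb counts, which allow up to 0.164 CPM. Calcb passed the filter of above 1 CPM in at least 2 libraries in no fit and was not tested.

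Adm had the highest mean level of these genes per length in both MEC groups and in WT macrophages. It lies at chr7:110627661-110629820 on the plus strand. It had 83.1 and 88.3 CPM in CebpbΔM MECs and 61.5 and 75.3 CPM in WT MECs, and both CebpbΔM libraries were above both WT libraries, as in 17.5% of the genes tested. The log2 fold change was 0.31 (SE 0.21, 95% CI -0.15 to 0.77), with adjusted P = 0.9996 (quasi-likelihood F test of edgeR, QL below, adjusted over 15698 genes by Benjamini-Hochberg, BH).

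In macrophages Adm was at 25.9, 41.1, 49.7 and 55.4 CPM in CebpbΔM 4 to 7 and at 70.6 and 45.9 CPM in WT 4 and 5. The groups overlapped, and the log2 fold change was -0.38 (SE 0.32, 95% CI -1.10 to 0.35, adjusted P = 0.75, edgeR QL test). The difference of the genotype changes, macrophage minus MEC, was -0.64 (SE 0.44, adjusted P = 0.97, edgeR QL interaction test). WT macrophage libraries differed from WT MECs by -0.41 (SE 0.33, adjusted P = 0.38). The antisense gene Gm28863 overlaps Adm and had 0 to 12 counts. Adm's neighbours Sbf2, 12739 bp away, and B430319F04Rik, 136857 bp away, had 383 to 847 and 6 to 100 counts.

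Calcrl, the shared receptor of CGRP and adrenomedullin, was at 2.999 and 7.98 CPM in CebpbΔM MECs and at 7.48 and 4.46 CPM in WT MECs. In macrophage libraries it was at 69.0, 87.6, 110 and 76.3 CPM in CebpbΔM 4 to 7 and at 69.3 and 100 CPM in WT 4 and 5. Every macrophage library was above every MEC library, as in 22.6% of genes tested, whereas the genotypes overlapped in both cell types. Calcrl (chr2:84330626-84425411, minus strand) was 12.5-fold higher in WT macrophage libraries than in WT MECs, with a log2 fold change of 3.65 (SE 0.42, adjusted P = 6.3e-05, edgeR QL test over 18323 genes).

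The genotype change of Calcrl was -0.16 (SE 0.43, 95% CI -1.11 to 0.78, adjusted P = 0.9996) in MECs and 0.06 (SE 0.26, 95% CI -0.52 to 0.64, adjusted P = 0.96) in macrophages by the edgeR QL test. The interval in macrophages leaves room for a change of up to 0.64 on the log2 scale.

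Calcr, the calcitonin receptor gene (chr6:3685680-3764714, minus strand), was counted little. It had 1 and 3 counts in CebpbΔM MECs and 6 and 5 in WT MECs, at or near the floor, and both WT libraries were higher, as in 11.7% of genes tested in MECs, although Calcr itself was below the filter there. In macrophages it had 0, 14, 72 and 3 counts in CebpbΔM 4 to 7 and 45 and 0 in WT 4 and 5. The genotypes overlapped (log2 fold change 0.08, SE 1.33, adjusted P = 0.99, edgeR QL test). The macrophage library with the most Calca had no Calcr count, and that with the most Calcr had no Calca count, whereas WT 4 had more counts of both genes than WT 5. Calcrl made up 94.9% to 100% of the summed level of both receptor genes per length in the 10 libraries.

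Of the RAMP genes, whose products set the ligand choice of CALCRL, Ramp2 was higher and Ramp1 lower in WT macrophage libraries than in WT MECs. Ramp2 was at 8.22 and 6.56 CPM in CebpbΔM MECs and 8.91 and 6.39 CPM in WT MECs. It was at 41.7, 87.7, 83.0 and 57.3 CPM in CebpbΔM macrophages 4 to 7 and at 74.7 and 70.9 CPM in WT 4 and 5. Every macrophage library was above every MEC library, as in 22.6% of genes tested. The WT macrophage libraries were 8.39-fold above WT MECs (log2 fold change 3.07, SE 0.38, adjusted P = 1.2e-04, edgeR QL test).

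Ramp1 (chr1:91179822-91225196, plus strand) was at 23.3 and 16.5 CPM in WT MECs 1 and 3 and at 10.47 and 10.1 CPM in WT macrophages 4 and 5, a log2 fold change of -1.13 (SE 0.27, adjusted P = 0.0079, edgeR QL test). The adjusted P was 0.0898 without WT MEC 1, which ends this call.

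Ramp3 (chr11:6658521-6677475, plus strand) was at 4.18 and 8.53 CPM in CebpbΔM MECs, 6.16 and 6.08 CPM in WT MECs, 2.03, 8.54, 5.76 and 6.55 CPM in CebpbΔM macrophages and 4.67 and 4.86 CPM in WT macrophages. The WT macrophage libraries were below the WT MECs, as in 24.2% of genes tested, and the difference of -0.54 (SE 0.53) did not pass the edgeR QL test (adjusted P = 0.48). Its CebpbΔM libraries spread on both sides of WT in both cell types.

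Of all 18323 genes, 16.0% were called higher and 12.1% lower in WT macrophage libraries than in WT MECs, and of the 6 members tested Calcrl and Ramp2 were called higher and Ramp1 lower. Calca is described here without a test, since its WT MEC values were used in choosing it. With 55.3 and 1.78 CPM in WT macrophages it had a fitted log2 difference of 6.98 (SE 3.14), which was 3.09 without WT macrophage library 4. Calcr had a difference of 2.28 (SE 1.64, adjusted P = 0.32). The Calcr difference was 3.35 without WT macrophage library 5, and without library 4 the gene fell below the filter. Cell type and isolation method cannot be told apart in this contrast. In bulk libraries fewer cells of a type and less RNA per cell cannot be told apart either.

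Blood endothelial markers moved with Calcrl and Ramp2 among the macrophage libraries. All 12 were above 1 CPM in every macrophage library, none was at 0 in a whole group, and Cdh5, an endothelial cadherin, was at 65.8 to 133 CPM there and at 2.81 to 6.28 CPM in MECs. Over the 6 macrophage libraries r with their sum was 0.84 for Calcrl (Spearman's rho 0.89) and 0.93 for Ramp2 (rho 0.89). Without the 2 libraries farthest from the median r was 0.63 and 0.90. Pericyte markers moved with both genes as well, with r = 0.70 (rho 0.89) for Calcrl and r = 0.98 (rho 0.89) for Ramp2, and with 0.60 and 0.82 without 2 libraries. Their part in the levels was not tested.

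Relative to the summed endothelial level, Calcrl was at 1.92% to 4.04% in the 4 MEC libraries and 2.69% to 3.78% in the 6 macrophage libraries, so these ranges overlapped. Ramp2 was at 3.32% to 5.25% in MECs and 2.29% to 2.90% in macrophage libraries, and these did not. Ramp3 (2.67% to 4.32% against 0.111% to 0.290%) and Adm (29.8% to 53.1% against 1.35% to 2.74%) were far apart. Pericyte markers, 25.1 to 54.7 CPM in MECs and 319 to 614 CPM in macrophage libraries for a list of 5, were higher in macrophage libraries too. The lymphatic list of 5 summed to 16.7 to 43.1 CPM in MECs and 32.7 to 79.0 CPM in macrophage libraries, with Ccl21a at 0 in all 10.

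**Figure D3:**
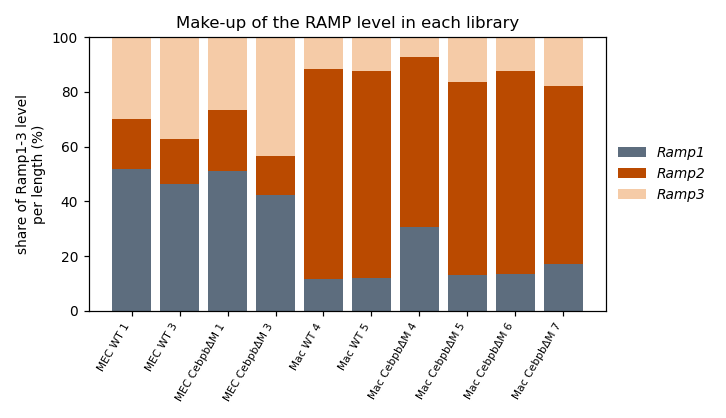
Share of Ramp1, Ramp2 and Ramp3 in their summed level per length, in percent, 1 bar per library. Ramp2 takes 62.1% to 76.8% in macrophage libraries and 14.0% to 22.0% in MEC libraries, and Ramp1 takes 42.4% to 51.8% in MEC libraries.

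Per length, which here is that of all annotated exons of a gene, the RAMP make-up of the cell types was distinct. In MECs Ramp1 was 47.9% ± 4.5 (SD, n = 4) of the summed RAMP level, Ramp3 34.4% ± 7.5 and Ramp2 17.6% ± 3.4. In macrophage libraries Ramp2 was 70.8% ± 6.0 (SD, n = 6), Ramp1 16.2% ± 7.3 and Ramp3 13.0% ± 3.8. CebpbΔM macrophage library 4 had the largest Ramp1 share of the macrophage libraries, at 30.6%.

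The order of levels per length also differed. In WT MECs Adm (42.2 ± 6.0 CPM per kb, SD, n = 2) was followed by Ramp1 (6.59 ± 1.59), Ramp3 (4.44 ± 0.043), Ramp2 (2.32 ± 0.54), Calcrl (1.22 ± 0.44), Calcb (0.573 ± 0.137), Calca (0.113 ± 0.034) and Calcr (0.0534 ± 0.0060), and no neighbours in this order overlapped. In CebpbΔM MECs Calca stood between Ramp3 and Ramp2 at 2.75 ± 1.55 CPM per kb (SD, n = 2) and overlapped both.

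In WT macrophages the order was Adm (36.0 ± 10.8 CPM per kb, SD, n = 2), Ramp2 (22.1 ± 0.8), Calcrl (17.3 ± 4.5), Calca (17.0 ± 22.5), Ramp3 (3.45 ± 0.10), Ramp1 (3.41 ± 0.08), Calcr (0.312 ± 0.441) and Calcb at 0. Calcrl and Calca, Calca and Ramp3, Ramp3 and Ramp1, and Calcr and Calcb overlapped. In CebpbΔM macrophages Calca had the highest mean (70.1 ± 95.3 CPM per kb, SD, n = 4) and its libraries ran from 0 to 202.3, over the range of every other member.

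Calca was not tested between genotypes, since its genotype values chose the members. None of the members tested was called in either cell type. In MECs 0 of the 5 tested were called, beside 0.0446% of 15698 genes called higher and 0.00637% called lower. In macrophages 0 of the 6 tested were called, beside 0% of 17772 genes in either direction. In the macrophage fit 1735 genes had an unadjusted P under 0.05, and the likelihood ratio test called 138 genes and DESeq2 201, none of them one of these 6 members. In MECs the corresponding counts were 870 at unadjusted P under 0.05, 179 by the likelihood ratio test and 161 by DESeq2, again with 0 of these members.

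Ramp1 came closest to a genotype difference in macrophages. It was at 18.8, 14.7, 13.7 and 13.7 CPM in CebpbΔM 4 to 7, all above both WT libraries at 10.47 and 10.1 CPM. Of the 17772 genes, 8.47% had all CebpbΔM libraries above both WT libraries and 10.3% had all below. The log2 fold change was 0.60 (SE 0.25, 95% CI 0.04 to 1.16), and it did not pass the edgeR QL test (adjusted P = 0.49). In MECs it was -0.17 (SE 0.26, adjusted P = 0.9996), with 17.6 and 18.2 CPM in CebpbΔM between the WT values.

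The difference between the genotype changes of Ramp1 was 0.82 (SE 0.35, adjusted P = 0.94, edgeR QL interaction test). No gene passed this test (0% of 18323), 962 had an unadjusted P under 0.05, and the likelihood ratio test called 53 and DESeq2 27. The basal sum moved with Ramp1 as well. Over the 6 macrophage libraries r was 0.84 with the basal sum (rho 0.66) and 0.96 without the 2 libraries farthest from its median. The basal sums of the genotypes overlapped, but those of 2 other lists did not. Luminal sums were 6113 to 8030 CPM in CebpbΔM and 11946 to 12196 CPM in WT macrophage libraries, with r = -0.70 to Ramp1 (rho -0.54) and 0.40 without 2 libraries. Sums of 11 macrophage markers were 11682 to 15838 CPM against 9008 to 9836 CPM, with r = 0.41 (rho 0.43) and 0.30 without 2 libraries. Their part in the Ramp1 level was not tested.

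The genotype changes of Ramp2 and Ramp3 were small against their errors. Ramp2 changed by -0.06 (SE 0.32, adjusted P = 0.9996) in MECs and by -0.06 (SE 0.30, adjusted P = 0.97) in macrophages, and Ramp3 by 0.02 (SE 0.35, adjusted P = 0.9996) and 0.31 (SE 0.51, adjusted P = 0.89), all by the edgeR QL test. Ramp2 (chr11:101246028-101259546, plus strand) overlaps Vps25 on the same strand, which had 27 to 62 counts, and Ramp3 overlaps the antisense gene Gm11978, which had 4 to 25 counts. Reads in exons shared on the same strand cannot be given to 1 gene of a pair. Reads over the antisense pair were assigned by strand, and whether the library kit kept strand is not stated in the sources used here.

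**Figure D4:**
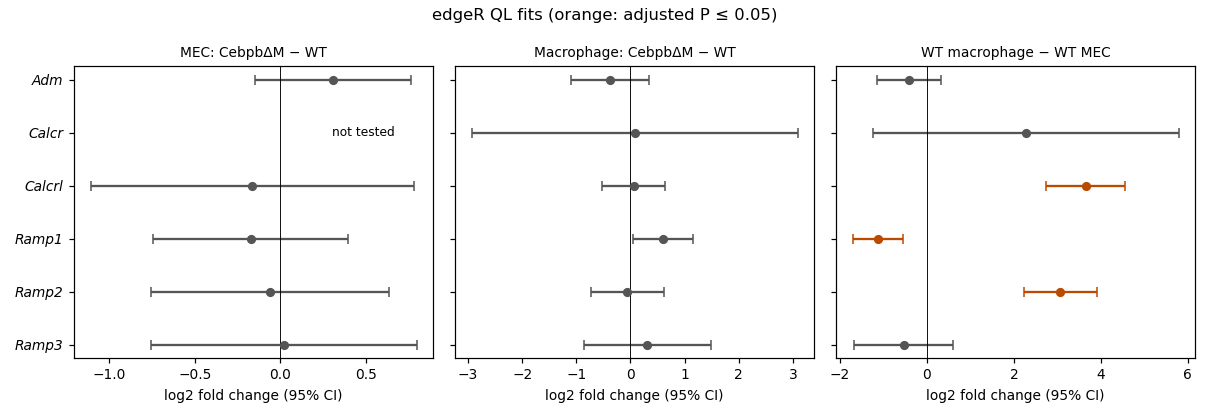
Log2 fold change with its 95% confidence interval for the members other than Calca and Calcb in the MEC genotype, macrophage genotype and WT cell type contrasts; orange marks an adjusted P of at most 0.05. No genotype interval is marked, and Calcrl and Ramp2 stand at 3.65 and 3.07 and Ramp1 at -1.13 in the cell type contrast.

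Genes of the wider pathway were followed in 6 lists of 71 symbols, 1 of which (Icer) matched no gene. In the MEC genotype contrast 1 of 63 tested was called, beside 0.0446% of 15698 genes called higher and 0.00637% called lower. The called gene was Tnfsf11, the RANKL gene, a target of progesterone in luminal cells. It had 596 and 245 counts in CebpbΔM MECs and 8 and 0 in WT MECs. The log2 fold change was 6.67 (SE 0.73, adjusted P = 0.011, edgeR QL test). It was 5.71 without WT MEC 3 and 11.7 without WT MEC 1, which leaves WT at 0 counts. The call was lost with DESeq2 (adjusted P = 0.077), with no filter on low counts (0.90) and with all 10 libraries in 1 fit (0.68). Without either CebpbΔM library the gene fell below the filter. It was thus tested only because it is high in that group. The study had also named Tnfsf11 for its rise in these MECs, so its P-values and the 1 call of 63 support no conclusion. The MEC libraries high in Calca were the ones high in Tnfsf11. In 17.5% of the MEC genes tested both CebpbΔM libraries were above both WT libraries, so nothing is read from this. CebpbΔM MEC 1 had more Tnfsf11 and CebpbΔM MEC 3 more Calca. In macrophages Tnfsf11 had 41, 166, 0 and 39 counts in CebpbΔM 4 to 7 and 264 and 0 in WT 4 and 5, and CebpbΔM 6 was at 0 for both genes. Its genotype difference there was -1.04 (SE 1.15, adjusted P = 0.82).

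The other 7 genes of the progesterone list did not pass in MECs, among them Wnt4, at 60.2 and 40.1 CPM in CebpbΔM and 28.1 and 22.7 CPM in WT (adjusted P = 0.27, edgeR QL test). Wnt4 was called with the replicate number as a block (log2 fold change 0.94, adjusted P = 0.023), with the likelihood ratio test on trended dispersions (0.98, adjusted P = 0.029) and without CebpbΔM MEC 3 (1.28, adjusted P = 0.0074), and its adjusted P ran up to 0.91 with another library left out. The list's median log2 change was 0.36, against -0.01 over all genes. Tnfsf11 and Wnt4 were on the list because the study had named them for their rise in these MECs, so nothing is read from this median. Cyclic AMP machinery (19 of 22 tested, median -0.02) and cyclic AMP response genes (9 of 10 tested, median -0.05) had 0 calls in MECs. In macrophages 0 of 65 genes of the 6 lists were called, with a median of 0.01 against 0.00 over all genes.

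Between WT macrophage libraries and WT MECs, 15 of 66 listed genes were higher and 12 lower, beside 16.0% higher and 12.1% lower of all genes, with a median of 0.09 against 0.06 over all genes. The Gs and cyclic AMP list had 7 higher and 3 lower of 20. Pde3b, a phosphodiesterase, had the largest increase of the listed genes that were called (log2 fold change 4.59, SE 0.78, adjusted P = 7.7e-04), followed by Arrb2, an arrestin that binds active receptors (4.43, SE 0.32, adjusted P = 1.4e-06), and Rapgef3, a cyclic AMP sensor (3.75, SE 0.49, adjusted P = 1.7e-04, edgeR QL test). Pde3b was at 0.148 to 0.356 CPM in the MEC libraries, below the 1 CPM of the filter. Like Tnfsf11, it was tested only because it is high in some groups, here the macrophage libraries, and its P-value supports no conclusion. Arrb2 stood above Pde3b without WT macrophage library 5 (4.09 against 3.81) and without WT MEC 1 (4.50 against 4.44), so their order depended on single libraries. Receptor partners had 4 of 8 higher and 0 lower.

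The largest decreases among the called genes of the lists were of Adm2, Car9 and Egln3. Adm2, whose peptide is also a ligand of CALCRL, had 51 and 35 counts in WT MECs and 0 in both WT macrophage libraries, so it was at least 21.0-fold lower there, taking 3 counts over the group as the floor. Its highest level in a macrophage library was 0.236 CPM, below the 1 CPM of the filter. Adm2 was thus tested only because it is high in MECs, and its call supports no conclusion. Car9 and Egln3, both targets of hypoxia-inducible factors, as Adm is, changed by -2.26 (SE 0.45, adjusted P = 0.0031) and -2.16 (SE 0.47, adjusted P = 0.0051) by the edgeR QL test. They changed by -3.19 and -2.90 without WT macrophage library 4, and Car9 by -1.63 without library 5. Without WT macrophage library 5 the call of Egln3 was lost (-1.60, adjusted P = 0.060). Of the 10 genes of the hypoxia list 4 were lower and 0 higher, beside 12.1% lower and 16.0% higher of all genes. Adm itself was not called in this contrast. The ligand and processing list had 3 higher and 2 lower of 11, and the cyclic AMP response list 1 higher and 2 lower of 9. The progesterone list had 0 higher and 1 lower of 8.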

How the data were processed

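RNA sequencing counts of 10 mammary gland libraries were used. The authors trimmed reads with Trimmomatic, mapped them to GRCm38 with HISAT2 and assigned read pairs to Ensembl genes (release 100) in featureCounts 1.6.2, which required both mates, a minimum mapping quality of 10 and the reverse strand. Raw counts per gene were deposited, with no scaling. Of 55487 genes, 55141 matched a symbol.

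Genes of at least 300 nt with over 1 CPM in at least 2 libraries were kept. Each cell type was fitted on its own, and all 10 libraries together for the WT cell type contrast and the interaction, with edgeR (version 4.0.16, R 4.3.3), TMM normalization, the QL test and BH adjustment at 0.05. Printed CPM are counts over the library's total. Levels per length divide CPM by the length of all annotated exons of the gene, not of 1 transcript. For Calca it is 1684 nt, whereas Calca-201 has 994. Shares and orders between genes depend on this length. Log2 CPM used a prior count of 2. Alternatives were DESeq2 (version 1.42.0), edgeR's likelihood ratio test, the older QL form, RLE, other filters, a replicate block, all libraries in 1 fit and each library left out. A likelihood ratio test on trended dispersions was chosen after seeing the data. The tests were checked on simulated data. The methods of the study name the likelihood ratio test.

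The members, lists and alternatives were chosen with earlier results of these data known. Named genes are the members, the 5 genes most correlated with Calca, neighbours and overlapping genes, listed pathway genes called in a genotype contrast and the 3 largest changes each way between cell types. Wnt4, Cebpb and single markers were named besides.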

Additional observations from a re-analysis of the deposited data

Results flagged for a closer look

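The Ramp1 level of CebpbΔM macrophage library 4 stood apart from the other CebpbΔM macrophage libraries on 1 of 2 scales. In log2 CPM scaled by the TMM factors the gap to the nearest library was 0.929 of the range of the 4 libraries, above the limit of Dixon's test for 4 values. In log2 CPM without these factors or the prior count it was 0.783, below the limit. The 7 members that passed the filter were looked at in this way, and chance marks about 1 in 20 such groups. The same library had the highest Calca level, at 341 CPM, and the highest basal marker sum of the macrophage libraries, at 3652 CPM. Without it the log2 fold change of Ramp1 between macrophage genotypes was 0.51 (adjusted P = 0.57, edgeR QL test), against 0.60 with it. Why this library differs was not tested.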

How the results depend on the processing

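Under every alternative run, 0 members other than Calca were called between genotypes in MECs, in macrophages or in the interaction. Calcrl and Ramp2 kept their call and direction between WT cell types under all 10 alternatives, with adjusted P up to 0.0024 and 0.0040. Ramp1 lost its call without WT MEC 1, so 2 or 3 members other than Calca were called.

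Calca's fitted genotype change ran from 4.26 to 4.88 in MECs, where leaving out either CebpbΔM library left it below the filter and gave no value, and from 0.69 to 5.99 in macrophages. CPM without division by length put a median of 4 of the 8 members at another rank in a library.

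Uncalled changes reversed as follows. With the replicate block Ramp3 in MECs was -0.038, Calcr and Calcrl in macrophages were -1.59 and -0.12, and Calcr and Ramp2 in the interaction were -0.10 and -0.17. Ramp3 in MECs was -0.0040 with all 10 libraries in 1 fit, and Calcrl in macrophages was -0.12 with replicate numbers 4 and 5 only. With each library left out, the MEC changes ran from -0.96 to 0.34 for Calcrl, -0.39 to 0.10 for Ramp1, -0.29 to 0.20 for Ramp2 and -0.51 to 0.41 for Ramp3. Those in macrophages ran from -0.95 to 0.51 for Calcr, -0.20 to 0.39 for Calcrl, -0.20 to 0.13 for Ramp2 and -2.18 to 8.95 for Tnfsf11, and those in the interaction from -0.21 to 1.04 for Calcrl, -0.23 to 0.31 for Ramp2 and -0.024 to 0.84 for Ramp3. The cause was not tested.

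Over all genes, MEC calls were 8, against 179 (likelihood ratio test), 161 (DESeq2), 229 (replicate block), 233 (trended dispersions), 5 (filterByExpr), 0 (no filter), 0 (all 10 libraries) and 5 to 354 (each library left out). Macrophage calls were 0, against 138, 201, 89 and 273 for the first 4 of these and 1 for replicate numbers 4 and 5 only. Interaction calls were 0, against 53, 27 and 4 for the first 3 and 0 to 2 with each library left out, and cell type calls were 5150, against 2752 to 4787 with each library left out. The numbers are shared between genotypes, but no label says what they mark, and same-numbered deviations correlated at 0.10 in MECs and 0.04 in macrophages. No block could be made for the cell type contrast, since no number is shared between cell types.

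With 2 libraries in 3 of the groups and few counts of Calcb and, in most libraries, of Calcr, small changes were not detectable at this depth.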

Other observations

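The casein genes Csn2 and Csn1s1, which encode milk proteins and were chosen after their values were seen, were also uneven among the macrophage libraries. Csn2 was at 257, 17.4, 0.524 and 0 CPM in CebpbΔM 4 to 7 and at 0 and 0.0496 CPM in WT 4 and 5, and Csn1s1 was at 302, 44.8, 2.99 and 0.177 CPM and at 3.04 and 2.97 CPM. CebpbΔM 4 and 5, the macrophage libraries highest in Calca, were the highest in both. Of the other casein genes, Csn1s2a was at 17.8, 2.73, 0.314 and 0 CPM in CebpbΔM 4 to 7 and at 0 CPM in WT, Csn1s2b had at most 1 count in a macrophage library, and Csn3 was at 247, 63.8, 91.8 and 59.0 CPM and at 126 and 78.7 CPM, where CebpbΔM 5 was not among the highest. WT 4, with 55.3 CPM of Calca, had 0 counts of Csn2. In MECs Csn2 was at 4.33 and 1.11 CPM in CebpbΔM 1 and 3 and at 0.752 and 0.616 CPM in WT.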
